A study of Populus tomentosa with 9 samples.

Results

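Transcript levels of poplar suspension cells exposed to H2O2 were compared with those of cells exposed to ASA, in a wild-type line and in an overexpression line. The comparison used 4 of the 9 libraries of the series, chosen by their labels: wild type and overexpression after 10 mM H2O2 for 3 h, and the same lines after 1 mM ASA for 3 h. All came from Populus tomentosa cells grown in the dark and treated 5 days after subculturing, with 1 library per line and treatment. Each genotype was a single cell line, the labels name neither the overexpressed gene nor its promoter, and they do not spell out ASA. The doses of both agents differ, so the comparison is between these exposures and not between equal amounts. The antisense libraries were left out because their H2O2 and ASA labels may be exchanged, and the untreated control libraries were not used. A gene called higher or lower here was therefore higher or lower after H2O2 than after ASA, and the comparison does not tell which agent moved it. The protocol text on RNA extraction names stems of Arabidopsis as its material, which goes against the organism and source labels; the gene identifiers are those of poplar.

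H2O2 is a reactive oxygen species that plant cells make in chloroplasts, peroxisomes and at the cell wall, where peroxidases use it to cross-link wall polymers. At high levels it damages proteins and membranes, and cells hold it down with catalase, peroxidases, peroxiredoxins and the glutathione and thioredoxin systems. It is also a signal that acts together with calcium, protein kinases and stress-responsive transcription factors such as the WRKY, NAC and ERF families. Chaperones of the HSP70 family bind unfolded proteins, and DnaJ proteins are the co-chaperones that stimulate them.

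Values are FPKM, fragments scaled to gene length and library depth, as deposited. Whole reads recovered from these values summed to 18559682 to 19365474 per library, and 22584 to 23105 genes per library reached 1 FPKM. In a gene of 1 kb, a floor of 3 reads corresponded to 0.155 to 0.162 FPKM. From 4.71% to 5.19% of all reads fell on the top 20 genes of a library, and no pair of libraries was identical. Descriptions of genes come from the deposited tables of differences between lines, so a gene has one only if the authors had listed it there; 2713 of the 23184 genes tested are described. Chlorophyll a/b binding protein POPTR_0014s17070, the one gene of light harvesting so described, was at 15.5 FPKM in wild type and 5.83 FPKM in overexpression after H2O2, against 30.9 and 19.8 FPKM after ASA.

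At a mean of at least 1 FPKM over the 4 libraries, 23184 genes were tested for a treatment difference shared by both lines, on log2(FPKM + 1) and with line as a block. With 2 lines and no replicates, a p-value here sets a gene's treatment difference against a moderated spread. That spread joins the gene's own scatter over the lines (1 degree of freedom) with a spread estimated over all genes tested (3.59 degrees of freedom). The SE values below rest on the same moderated spread. At a limma adjusted p of at most 0.05, 180 genes (0.776%) were higher after H2O2 and 421 genes (1.82%) were lower. The median log2 difference was 1.29 among the higher genes and -1.499 among the lower ones, and the extremes were 3.46 and -3.71. The smallest adjusted p was 0.0254, 3072 genes had one of at most 0.1, and 6692 genes had an unadjusted p below 0.05. Described genes made up 89 of the higher and 267 of the lower genes, which is 3.28% and 9.84% of those tested. Among genes with no description, 91 (0.445%) were higher and 154 (0.752%) were lower. All gene lists below hold described genes, so their counts are to be read beside those shares of described genes, and beside the 34.6% of described genes that lay higher and the 43.3% that lay lower in both lines whether or not they passed.

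The direction of a gene was the same in both lines for 17073 genes (73.6%), of which 11222 were higher and 5851 lower. A difference of at least 2-fold in both lines was seen for 201 genes (0.867%) that were higher and 499 (2.15%) that were lower. Of described genes 80 (2.95%) were 2-fold higher and 292 (10.8%) 2-fold lower in both lines, and of genes with no description 121 (0.591%) and 207 (1.01%). In wild type alone, 605 genes were at least 2-fold higher and 1133 at least 2-fold lower. In overexpression the counts were 611 and 1009. Of the wild-type genes 33.2% of those higher and 44.0% of those lower were also 2-fold apart in overexpression, and in reverse the shares were 32.9% and 49.5%. Across genes the within-line differences had a Pearson r of 0.622, a description over genes that are not independent replicates. The lines differed more from each other than the treatments did: 2847 genes were at least 2-fold apart between the lines after H2O2 and 3101 after ASA, against 1738 and 1620 between treatments in wild type and in overexpression.

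**Figure D1:**
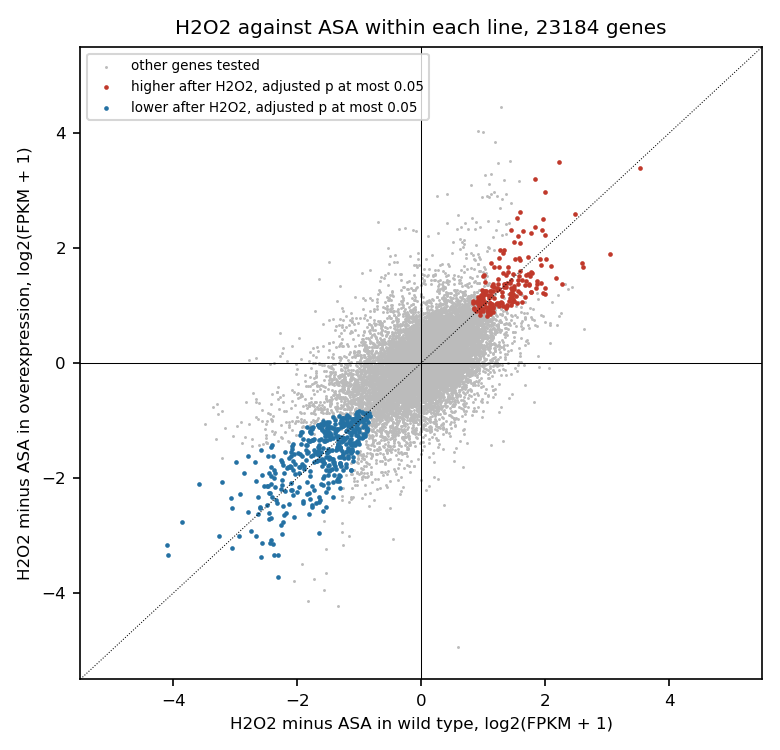
Difference between H2O2 and ASA in wild type (x axis) and in overexpression (y axis), both in log2(FPKM + 1), for each of the 23184 genes tested; red and blue points are the 180 higher and 421 lower genes at an adjusted p of at most 0.05, and the dotted line marks equal differences. The called genes lie near the dotted line at both ends, and genes with large differences in one line only are grey. The test sets this pattern, because a gene's scatter over the lines enters the spread against which its treatment difference is weighed.

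The calls depended on scaling and on the model. Size factors from median ratios gave 47 higher and 337 lower genes, which lowers the share of higher genes, and the median log2 difference over all genes tested went from 0.126 to 0.0303. Fits without the line block, without the variance trend or with no filter on low values gave 0 calls by limma, with 1745, 6389 and 6517 genes at an unadjusted p below 0.05, and voom on the recovered reads gave 545 higher and 837 lower.

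Among described genes, the one furthest above its ASA level in both lines was POPTR_0001s02710, a NAC factor of a plant-specific family named after genes that act in shoot meristem formation. It was at 28.6 FPKM in wild type and 47.9 FPKM in overexpression after H2O2, against 1.56 and 3.68 FPKM after ASA. Both H2O2 libraries lay above both ASA libraries, and the log2 difference was 3.46 ± 0.14 (SE; limma adjusted p = 0.0254). Next came POPTR_0010s21270, an HSP70 chaperone, at 174 FPKM in wild type and 292 FPKM in overexpression after H2O2, against 36.6 and 24.9 FPKM after ASA. Its log2 difference was 2.86 ± 0.33 (SE; limma adjusted p = 0.0393), larger in overexpression (2.22 in wild type and 3.502 in overexpression). POPTR_0004s22210, of the LOG family that releases active cytokinin from its nucleotide, was at 111 FPKM in wild type and 51.1 FPKM in overexpression after H2O2, against 27.7 and 9.44 FPKM after ASA. All H2O2 values exceeded all ASA values, and the log2 difference was 2.14 ± 0.15 (SE; limma adjusted p = 0.0285).

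POPTR_0017s09610 is described as a small subunit of ribonucleotide reductase, which makes deoxyribonucleotides for DNA synthesis. It was at 26.2 FPKM in wild type and 66.2 FPKM in overexpression after H2O2, against 5.74 and 18.2 FPKM after ASA. The lowest H2O2 value stayed above the highest ASA value, and the within-line differences were 2.02 in wild type and 1.805 in overexpression (limma adjusted p = 0.0285). POPTR_0009s11650, a sugar transporter, was at 38.7 FPKM in wild type and 52.9 FPKM in overexpression after H2O2, against 12.1 and 16.9 FPKM after ASA, with nearly the same difference in both lines (1.599 in wild type and 1.59 in overexpression; limma adjusted p = 0.0285). POPTR_0014s01300, an aminotransferase, was at 7.62 and 32.5 FPKM after H2O2 against 1.87 and 4.43 FPKM after ASA in wild type and overexpression, and its difference was 2.11 ± 0.28 (SE; limma adjusted p = 0.0467).

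Toward lower values, POPTR_0005s00900 stood first. It encodes a xyloglucan endotransglucosylase/hydrolase (XTH), an enzyme that cuts and rejoins the xyloglucan chains between cellulose microfibrils, and was at 6.04 FPKM in wild type and 3.78 FPKM in overexpression after H2O2, against 118 and 47.5 FPKM after ASA. The ASA libraries were far above both H2O2 libraries, and the log2 difference was -3.71 ± 0.21 (SE; limma adjusted p = 0.0266). Expansin POPTR_0004s18840, a wall-loosening protein, was at 2.07 FPKM in wild type and 4.82 FPKM in overexpression after H2O2, against 51.9 and 51.2 FPKM after ASA, a difference of -3.64 ± 0.26 (SE; limma adjusted p = 0.0285). POPTR_0015s09920, with BTB and TAZ zinc-finger domains, was at 25.5 FPKM in wild type and 15.5 FPKM in overexpression after H2O2, against 219.6 and 153 FPKM after ASA. Its within-line differences were alike (-3.06 in wild type and -3.22 in overexpression), and it had 1 of the 5 smallest p-values among described genes (limma adjusted p = 0.0254).

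POPTR_0006s08720, a HAD-superfamily phosphatase described as a pyrimidine 5-nucleotidase, was at 3.33 FPKM in wild type and 10.8 FPKM in overexpression after H2O2, against 40.4 and 94.7 FPKM after ASA, and its difference was -3.14 ± 0.14 (SE; limma adjusted p = 0.0254). POPTR_0011s05310, a protein of unknown function with a DUF506 domain, was at 6.99 FPKM in wild type and 14.5 FPKM in overexpression after H2O2, against 60.7 and 124 FPKM after ASA (-2.98 ± 0.12; limma adjusted p = 0.0254). In both genes overexpression was above wild type under either agent, and the treatment difference was nearly equal in both lines. Glyoxalase-family gene POPTR_0001s17160 was among the most abundant of the set, at 28.7 FPKM in wild type and 43.5 FPKM in overexpression after H2O2, against 179 and 255 FPKM after ASA, with a difference of -2.56 ± 0.13 (SE; limma adjusted p = 0.0254).

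Genes with no description were named by the same ranking, 2 in each direction. POPTR_0001s15890 was at 15.3 FPKM in wild type and 6.07 FPKM in overexpression after H2O2, against 1.896 and 0.173 FPKM after ASA (2.54 ± 0.17 (SE; limma adjusted p = 0.0285)). The last value rests on 3 reads, and the H2O2 to ASA ratio by reads was 8.05 (95% counting interval 5.59 to 11.9) in wild type and 35.2 (11.7 to 173) in overexpression. POPTR_0001s03830 was at 25.4 and 41.6 FPKM after H2O2 against 5.596 and 8.11 FPKM after ASA (2.11 ± 0.14 (SE; limma adjusted p = 0.0285)). On the lower side POPTR_0009s13440 was at 4.03 and 10.3 FPKM after H2O2 against 32.8 and 84.6 FPKM after ASA (-2.84 ± 0.13 (SE; limma adjusted p = 0.0254)). POPTR_0005s10220, whose identifier neighbours that of an auxin efflux carrier described below, held 3 and 1 reads after H2O2 against 71 and 93 after ASA. Both H2O2 libraries were at or under the floor of 3 reads, and the ratio was 0.0421 (95% counting interval 0.00847 to 0.128) in wild type and 0.0103 (0.000258 to 0.0588) in overexpression.

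**Figure D2:**
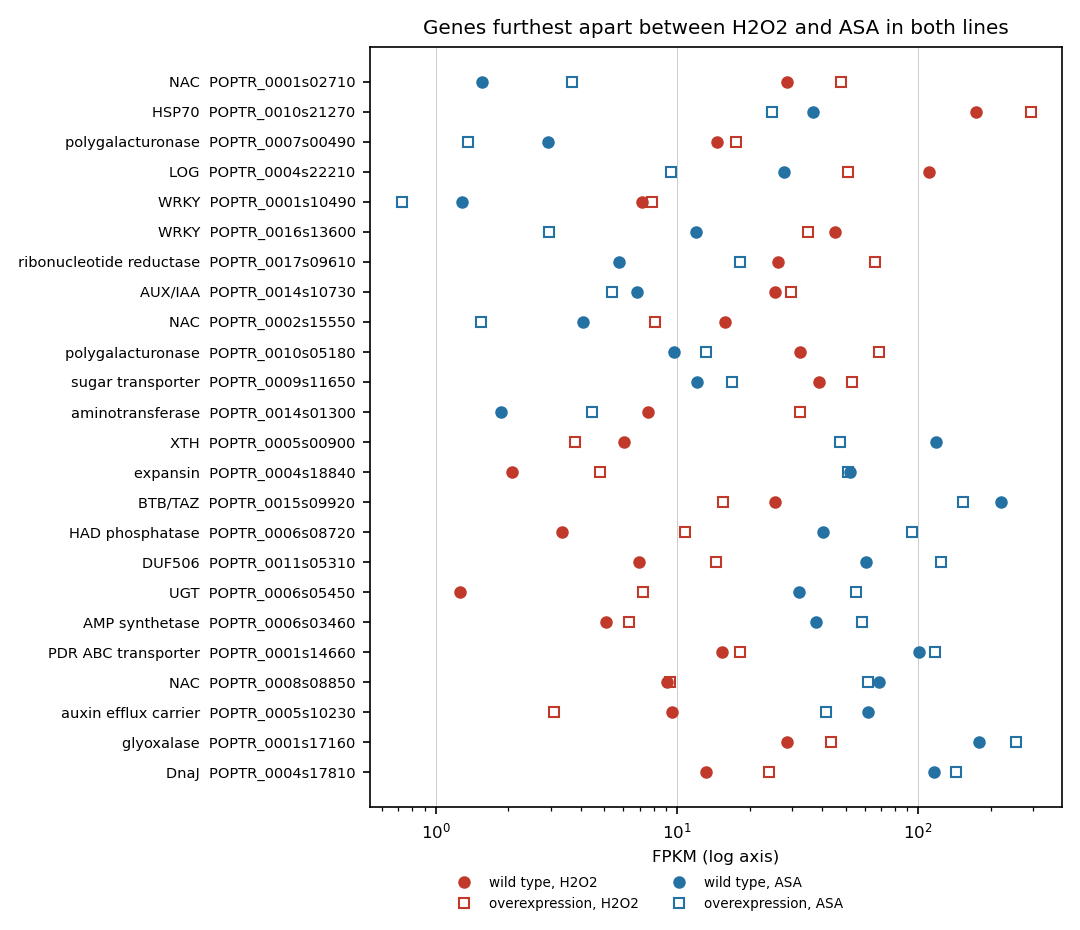
FPKM on a log axis in each of the 4 libraries for the 12 described genes furthest higher and the 12 furthest lower after H2O2 in both lines; circles are wild type, squares overexpression, red H2O2 and blue ASA. In the upper 12 genes each red symbol lies right of the blue symbol of the same line, and in the lower 12 it lies left of it.

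HSP70 was the gene group with the largest positive median among the lists, none of which was chosen blind to earlier results of these data. Of 16 measured HSP70 genes, 15 were higher after H2O2 in both lines and none was lower in both, 8 were at least 2-fold higher in both, and in 11 both H2O2 libraries exceeded both ASA libraries. Non-overlap in that direction held for 25.6% of all genes tested and 11.8% of described ones. Higher in both lines were 48.4% of all genes tested and 34.6% of described ones. At least 2-fold higher in both lines were 0.867% and 2.95%. Only POPTR_0010s21270, above, and POPTR_0003s14360 passed the test. The median log2 difference was 1.56, with 0.96 in wild type and 2.09 in overexpression, beside 0.13 over all genes tested and -0.11 over described genes. POPTR_0003s14360 was at 107 FPKM in wild type and 295 FPKM in overexpression after H2O2, against 53.03 and 102 FPKM after ASA (1.26 ± 0.18 (SE; limma adjusted p = 0.0491)). Wild type after H2O2 lay only just above overexpression after ASA in that gene.

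In several other HSP70 genes the overexpression ASA library was the lowest of the 4. POPTR_0001s03410 was at 74.99 FPKM in wild type and 96.3 FPKM in overexpression after H2O2, against 30.3 and 3.46 FPKM after ASA. Its within-line differences of 1.28 in wild type and 4.45 in overexpression were far apart, and it did not pass (limma adjusted p = 0.103). POPTR_0001s03420 stood at 19.8 and 40.01 FPKM after H2O2 against 10.01 and 1.49 FPKM after ASA, and POPTR_0010s21350 at 158 and 159 FPKM after H2O2 against 73.7 and 20.6 FPKM after ASA, with the overexpression ASA library again the lowest. POPTR_0001s11010, the most abundant HSP70 in overexpression, was at 138 and 513 FPKM after H2O2 against 78.8 and 250.4 FPKM after ASA. In each of the 15 genes that were higher in both lines the difference was larger in overexpression than in wild type. Genes are on this list only if the authors found them to differ between lines, also after H2O2 or ASA in these same libraries. Uneven differences between the lines may therefore be partly selected for. With size factors from median ratios 15 genes were still higher in both lines but 0 passed by limma, and voom called 8. Several identifiers are neighbours, and reads of near-identical HSP70 copies cannot be told apart in these values.

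**Figure D3:**
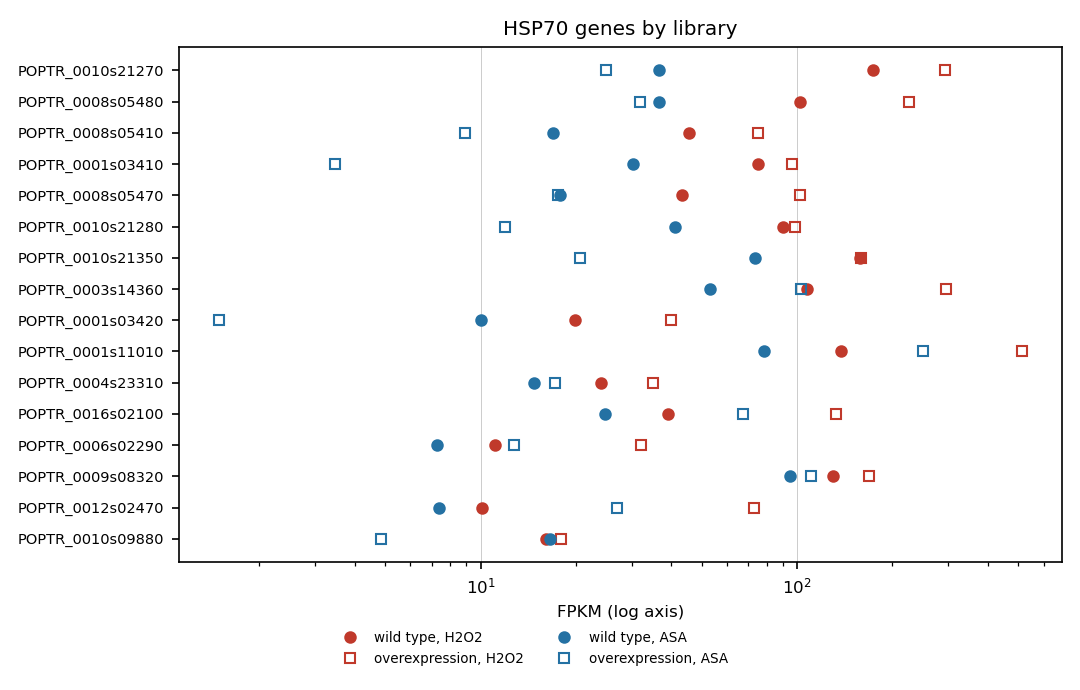
FPKM on a log axis of the 16 HSP70 genes in the 4 libraries, ordered by the smaller of the within-line differences; circles are wild type, squares overexpression, red H2O2 and blue ASA. The blue squares, overexpression after ASA, lie furthest left in many genes, down to 1.49 FPKM in POPTR_0001s03420.

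DnaJ co-chaperones that passed were lower. Of 18 such genes, a list made after the values were seen, 10 (55.6%) were lower in both lines and 4 (22.2%) higher. Of described genes, 43.3% and 34.6% were. Past the threshold were 6 (33.3%), all of them lower, beside 9.84% of described genes. POPTR_0004s17810 was at 13.1 FPKM in wild type and 24.2 FPKM in overexpression after H2O2, against 116 and 144 FPKM after ASA (-2.79 ± 0.17 (SE; limma adjusted p = 0.0285)). POPTR_0002s02220 stood at 29.3 and 12.2 FPKM after H2O2 against 166 and 85.5 FPKM after ASA (-2.59 ± 0.14 (SE; limma adjusted p = 0.0254)), and the abundant POPTR_0001s03470 at 167 and 121 FPKM after H2O2 against 421 and 469.98 FPKM after ASA (-1.64 ± 0.21 (SE; limma adjusted p = 0.0446)). Their H2O2 and ASA libraries did not overlap. The broader list of small HSP, DnaJ, HSP90 and chaperonin genes held 44 measured members, of which 2 were higher and 7 lower past the threshold. Its higher members were chaperonins of the Cpn60 and Cpn10 type, which fold proteins in organelles: Cpn60 gene POPTR_0004s22340 was at 29.4 and 63.9 FPKM after H2O2 against 12.1 and 25.4 FPKM after ASA (1.26 ± 0.12 (SE; limma adjusted p = 0.0343)). One of its 7 lower members is a lipid kinase with a FYVE finger that the word pattern caught.

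Of 7 small heat shock proteins of the Hsp20 type, holdases that keep unfolded proteins soluble, 5 were higher in both lines and 0 passed in limma or voom. POPTR_0009s05440 was at 56.6 FPKM in wild type and 125 FPKM in overexpression after H2O2, against 25.5 and 11.9 FPKM after ASA, a within-line difference of 1.12 in wild type and 3.29 in overexpression (limma adjusted p = 0.0899). As in several HSP70 genes, the overexpression ASA value was the lowest of the 4. POPTR_0003s16590, a BAG-domain gene (BAG proteins are co-chaperones of HSP70), was at 63.3 and 77.3 FPKM after H2O2 against 27.2 and 4.42 FPKM after ASA (limma adjusted p = 0.0977). Of 6 genes of heat shock factors, the transcription factors of chaperone genes, 2 were higher and 2 lower in both lines and 0 passed in limma, while voom called 1 higher. POPTR_0006s24330 had the largest difference, at 28.7 and 28.7 FPKM after H2O2 against 17.2 and 10.6 FPKM after ASA (limma adjusted p = 0.0688).

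Most genes of the translation machinery lay slightly higher after H2O2, and few passed. Of 155 genes with a ribosomal protein description, 143 were higher in both lines and 3 lower, and the median log2 difference was 0.41, with 0.52 in wild type and 0.28 in overexpression. Across all genes tested, 48.4% were higher in both lines, and 34.6% of described genes. Only 8 (5.16%) passed, all higher, beside 3.28% of described genes, and 1 of them, POPTR_0005s10090, is a GTP-binding translation protein with a ribosomal protein fold (33.3 and 52.1 FPKM after H2O2 against 12.5 and 20.2 FPKM after ASA; 1.33 ± 0.12 (SE; limma adjusted p = 0.0319)). L10/P0 protein gene POPTR_0001s46440 was at 37.99 and 55.2 FPKM after H2O2 against 16.5 and 27.7 FPKM after ASA (1.06 ± 0.13 (SE; limma adjusted p = 0.0429)), and S25 gene POPTR_0010s24580 at 108 and 202 FPKM after H2O2 against 54.3 and 105 FPKM after ASA (0.96 ± 0.13 (SE; limma adjusted p = 0.0474)). After median-ratio scaling 131 were higher in both lines and 1 passed. Of 27 translation factors 22 were higher in both lines and 1 passed, the same GTP-binding gene. Elongation factor EF1A gene POPTR_0008s04270 was at 202 and 507 FPKM after H2O2 against 114 and 279.7 FPKM after ASA and did not pass (limma adjusted p = 0.0632).

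F-box, RING and U-box proteins belong to ubiquitin ligases, in which F-box proteins bind the substrate and RING and U-box domains bind the ubiquitin-conjugating enzyme. Of 91 such genes, 61 (67.0%) were lower in both lines and 14 higher, beside 43.3% and 34.6% of described genes. Past the threshold 18 (19.8%) were lower and 2 higher, beside 9.84% and 3.28% of described genes; quantile normalisation gave 12 lower. F-box gene POPTR_0014s07190 with a phloem protein domain was at 3.597 FPKM in wild type and 3.98 FPKM in overexpression after H2O2, against 24.7 and 26.8 FPKM after ASA, a difference of -2.48 ± 0.14 (SE; limma adjusted p = 0.0254), equal in both lines. RING gene POPTR_0005s17460 was at 11.3 and 5.82 FPKM after H2O2 against 56.1 and 41.4 FPKM after ASA (-2.43 ± 0.16 (SE; limma adjusted p = 0.0285)). Kelch-repeat F-box genes, a list made after the values were seen, were among them: 6 of 13 passed as lower and 1 as higher, with a median of -1.10, with -1.14 in wild type and -1.06 in overexpression. POPTR_0001s17860 of that type stood at 30.7 and 83.6 FPKM after H2O2 against 139.6 and 295 FPKM after ASA (-1.98 ± 0.15 (SE; limma adjusted p = 0.0285)). The exceptions were POPTR_0004s20950, at 40.3 and 46.7 FPKM after H2O2 against 12.8 and 12.4 FPKM after ASA (1.71 ± 0.14 (SE; limma adjusted p = 0.0287)), and Kelch-type POPTR_0006s23410. The list also caught a cellulose synthase with a RING finger and the FYVE lipid kinase, both lower.

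The bZIP factors had the most negative median of the lists of at least 5 genes fixed for this comparison. Those lists had been chosen with earlier results of these data known. Factors of the bZIP family bind DNA as dimers through a leucine zipper and include regulators of sugar, hormone and defence responses. Of 12 measured, 9 (75%) were lower in both lines and 2 (16.7%) higher, beside 43.3% and 34.6% of described genes. Past the threshold were 6 (50%), all lower, beside 9.84% of described genes. The median log2 difference was -1.21, with -1.06 in wild type and -1.10 in overexpression. POPTR_0002s03330 was at 5.51 FPKM in wild type and 6.32 FPKM in overexpression after H2O2, against 38.6 and 40.7 FPKM after ASA (-2.56 ± 0.13 (SE; limma adjusted p = 0.0254)). POPTR_0010s15280 stood at 23.0 and 19.4 FPKM after H2O2 against 112 and 137 FPKM after ASA (-2.500 ± 0.17 (SE; limma adjusted p = 0.0285)) and POPTR_0005s25290 at 23.7 and 27.4 FPKM after H2O2 against 86.1 and 135 FPKM after ASA (-2.04 ± 0.16 (SE; limma adjusted p = 0.0285)). No H2O2 library reached an ASA library in any of these 3 genes.

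NAC factors passed in both directions. Of 25 genes on the list, 1 is a nascent-polypeptide-complex protein and no NAC factor. Past the threshold 4 (16%) were higher and 6 (24%) lower, beside 3.28% and 9.84% of described genes. In both lines 15 were lower and 6 higher, and the median was -0.69. Median-ratio scaling and quantile normalisation each gave 3 higher and 3 lower. POPTR_0008s08850 was at 9.09 FPKM in wild type and 9.36 FPKM in overexpression after H2O2, against 68.7 and 61.7 FPKM after ASA (-2.69 ± 0.13 (SE; limma adjusted p = 0.0254)), opposite in direction to POPTR_0001s02710 above. POPTR_0003s08830 stood at 36.2 and 35.5 FPKM after H2O2 against 11.98 and 9.42 FPKM after ASA (1.66 ± 0.14 (SE; limma adjusted p = 0.0301)) and POPTR_0002s15550 at 15.8 and 8.12 FPKM after H2O2 against 4.07 and 1.53 FPKM after ASA (1.79 ± 0.16 (SE; limma adjusted p = 0.0301)). On the lower side were POPTR_0013s05110, at 21.7 and 19.04 FPKM after H2O2 against 80.5 and 58.2 FPKM after ASA (-1.704 ± 0.14 (SE; limma adjusted p = 0.0287)), and the weakly expressed POPTR_0010s17350, at 1.35 and 1.26 FPKM after H2O2 against 11.3 and 5.94 FPKM after ASA (-2.01 ± 0.25 (SE; limma adjusted p = 0.0437)).

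WRKY factors act in defence and stress responses, and VQ proteins bind them. Of 33 such genes, 2 (6.06%) passed as higher and 3 (9.09%) as lower, beside 3.28% and 9.84% of described genes. The higher ones were WRKY genes. POPTR_0001s10490 was at 7.19 FPKM in wild type and 7.87 FPKM in overexpression after H2O2, against 1.29 and 0.722 FPKM after ASA (2.102 ± 0.21 (SE; limma adjusted p = 0.0361)), on 241 and 273 reads after H2O2 against 43 and 24 after ASA. POPTR_0016s13600 was at 45.3 FPKM in wild type and 35.1 FPKM in overexpression after H2O2, against 11.96 and 2.94 FPKM after ASA (2.52 ± 0.34 (SE; limma adjusted p = 0.0474)). VQ gene POPTR_0002s09550 lay at 2.18 and 1.78 FPKM after H2O2 against 15.5 and 9.099 FPKM after ASA (-2.12 ± 0.20 (SE; limma adjusted p = 0.0319)) and WRKY gene POPTR_0011s06990 at 5.26 and 7.29 FPKM after H2O2 against 17.9 and 16.4 FPKM after ASA (-1.33 ± 0.18 (SE; limma adjusted p = 0.0475)), both lower.

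AP2/ERF factors, many of them ethylene-responsive, also went both ways. Of 31, 2 (6.45%) passed as higher and 4 (12.9%) as lower, beside 3.28% and 9.84% of described genes. POPTR_0002s09480 was at 32.2 FPKM in wild type and 54.6 FPKM in overexpression after H2O2, against 10.4 and 8.64 FPKM after ASA (2.03 ± 0.26 (SE; limma adjusted p = 0.04497)), and POPTR_0001s11780 at 61.3 and 13.3 FPKM after H2O2 against 20.1 and 4.27 FPKM after ASA (1.503 ± 0.13 (SE; limma adjusted p = 0.0301)). Lower were POPTR_0003s15060, at 3.18 and 4.41 FPKM after H2O2 against 20.3 and 27.1 FPKM after ASA (-2.36 ± 0.14 (SE; limma adjusted p = 0.0266)), and POPTR_0002s06620, at 12.9 and 13.02 FPKM after H2O2 against 75.1 and 51.9 FPKM after ASA (-2.18 ± 0.18 (SE; limma adjusted p = 0.0287)). Their median, 0.04, lay near 0 and was negative after median-ratio scaling.

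MYB and MYB-like factors were lower where they passed. Of 32 genes, 10 (31.2%) passed, all lower, beside 9.84% of described genes. The median of the list was -0.61, with -0.64 in wild type and -0.69 in overexpression. MYB genes of the SHAQKYF class, a list made after the values were seen, had 10 of 11 members lower in both lines and 5 past the threshold. POPTR_0010s13900 of this class was at 47.6 FPKM in wild type and 13.01 FPKM in overexpression after H2O2, against 129.6 and 58.2 FPKM after ASA (-1.75 ± 0.20 (SE; limma adjusted p = 0.0389)). POPTR_0019s02650, with a SANT domain, stood at 32.9 and 78.2 FPKM after H2O2 against 106 and 217 FPKM after ASA (-1.56 ± 0.14 (SE; limma adjusted p = 0.0301)). In that gene both lines were about equally lower, around a level that was higher in overexpression.

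Of 17 bHLH factors, 2 (11.8%) passed as higher and 2 (11.8%) as lower, beside 3.28% and 9.84% of described genes. POPTR_0017s11760, the most abundant of these 4, was at 247 FPKM in wild type and 179 FPKM in overexpression after H2O2, against 75.5 and 60.9 FPKM after ASA (1.62 ± 0.14 (SE; limma adjusted p = 0.0298)), and POPTR_0013s00920 was at 23.9 and 34.04 FPKM after H2O2 against 111 and 123 FPKM after ASA (-1.99 ± 0.15 (SE; limma adjusted p = 0.0285)). Of 18 genes on the list of C2H2 zinc fingers, 2 (11.1%) were higher and 2 (11.1%) lower. After median-ratio scaling or quantile normalisation 0 genes of this list passed as higher. POPTR_0002s12010 stood at 20.5 and 5.06 FPKM after H2O2 against 7.57 and 0.604 FPKM after ASA (1.62 ± 0.21 (SE; limma adjusted p = 0.0447)). The lower POPTR_0016s12470 is described as a trihelix factor as well, at 8.52 and 9.104 FPKM after H2O2 against 33.5 and 26.2 FPKM after ASA (-1.64 ± 0.16 (SE; limma adjusted p = 0.0343)). Of 13 GRAS factors, 2 passed, both lower and both scarecrow-like: POPTR_0017s01730 at 11.6 and 9.33 FPKM after H2O2 against 35.1 and 21.5 FPKM after ASA (-1.32 ± 0.16 (SE; limma adjusted p = 0.0412)) and POPTR_0002s07430 at 69.3 and 85.3 FPKM after H2O2 against 137 and 171 FPKM after ASA (-0.99 ± 0.13 (SE; limma adjusted p = 0.0456)). The GRAS calls were 15.4% of their list, beside 9.84% of described genes called lower, and 0 GRAS genes passed after quantile normalisation. None of 6 MADS- or K-box genes and of 3 TIFY-domain genes passed in limma or voom.

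Calcium-binding proteins and protein kinases passed in shares near those of described genes. Of 62 genes with EF-hand, calmodulin or calmodulin-binding descriptions, 37 (59.7%) were lower in both lines and 8 higher, beside 43.3% and 34.6% of described genes. Of these, 5 (8.06%) passed as lower and 1 as higher, beside 9.84% and 3.28%, and quantile normalisation gave 2 lower. EF-hand gene POPTR_0002s00350 was at 35.0 FPKM in wild type and 41.7 FPKM in overexpression after H2O2, against 137 and 96.7 FPKM after ASA (-1.56 ± 0.21 (SE; limma adjusted p = 0.0474)), and EF-hand gene POPTR_0003s08250 went the opposite way at 101 and 87.4 FPKM after H2O2 against 40.1 and 38.5 FPKM after ASA (1.24 ± 0.13 (SE; limma adjusted p = 0.0362)). Among kinases, POPTR_0005s14250, which carries an EF-hand, stood at 14.6 and 17.3 FPKM after H2O2 against 46.4 and 62.5 FPKM after ASA (-1.698 ± 0.13 (SE; limma adjusted p = 0.0285)), and POPTR_0018s10450, with a NAF domain of the kind that binds calcium sensors, at 17.7 and 4.18 FPKM after H2O2 against 74.2 and 23.6 FPKM after ASA (-2.13 ± 0.14 (SE; limma adjusted p = 0.0285)).

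Over all 150 protein kinase genes, 13 (8.67%) passed as lower and 3 (2%) as higher, beside the 9.84% and 3.28% of described genes. In both lines 65 (43.3%) were lower, the same share as of described genes. POPTR_0001s22800, a beta subunit of the SNF1-related kinase that responds to energy supply, was at 24.3 FPKM in wild type and 34.4 FPKM in overexpression after H2O2, against 66.3 and 116 FPKM after ASA (-1.57 ± 0.14 (SE; limma adjusted p = 0.0312)). The 3 higher genes went without a call after median-ratio scaling. Of 11 protein phosphatases 2C, which include negative regulators of abscisic acid signalling, 1 passed: POPTR_0008s05950 at 14.8 and 19.05 FPKM after H2O2 against 59.8 and 52.3 FPKM after ASA (-1.68 ± 0.17 (SE; limma adjusted p = 0.0362)).

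Auxin genes moved in both directions, 4 (12.1%) higher and 4 (12.1%) lower of 33 measured, beside 3.28% and 9.84% of described genes. Efflux carriers export auxin from the cell. POPTR_0005s10230 was at 9.52 FPKM in wild type and 3.11 FPKM in overexpression after H2O2, against 61.8 and 41.4 FPKM after ASA (-2.97 ± 0.22 (SE; limma adjusted p = 0.0285)), and POPTR_0365s00230, another efflux carrier, at 7.42 and 2.002 FPKM after H2O2 against 40.7 and 29.5 FPKM after ASA (-2.83 ± 0.28 (SE; limma adjusted p = 0.0337)). The SAUR gene POPTR_0012s03050 was also lower, at 38.2 and 21.3 FPKM after H2O2 against 152 and 98.7 FPKM after ASA (-2.07 ± 0.13 (SE; limma adjusted p = 0.0285)). AUX/IAA gene POPTR_0014s10730, a repressor of auxin response, was higher, at 25.6 and 29.6 FPKM after H2O2 against 6.83 and 5.39 FPKM after ASA (2.01 ± 0.18 (SE; limma adjusted p = 0.0301)). The other higher genes were an efflux carrier of the plant type, POPTR_0010s12320 (1.599 ± 0.22), and a pair of GH3 genes, POPTR_0011s13330 (1.302 ± 0.15) and POPTR_0001s12850 (0.98 ± 0.14), whose family conjugates auxin and other hormones to amino acids. After median-ratio scaling 1 of the 33 genes passed as higher and 3 as lower.

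Wall-loosening proteins differed by family. Of 14 expansins, 5 (35.7%) passed as higher and 1 (7.14%), POPTR_0004s18840 above, as lower, beside 3.28% and 9.84% of described genes. POPTR_0014s06170 was at 390.1 FPKM in wild type and 88.3 FPKM in overexpression after H2O2, against 122 and 33.8 FPKM after ASA (1.52 ± 0.15 (SE; limma adjusted p = 0.03401)). POPTR_0008s08790 was at 64.01 FPKM in wild type and 312 FPKM in overexpression after H2O2, against 21.1 and 119 FPKM after ASA (1.47 ± 0.13 (SE; limma adjusted p = 0.0312)), so the lines were in opposite order in these genes while the treatment differences were alike. POPTR_0019s13300 stood at 69.2 and 59.04 FPKM after H2O2 against 20.04 and 22.5 FPKM after ASA (1.55 ± 0.15 (SE; limma adjusted p = 0.0337)). After median-ratio scaling 3 expansins passed as higher and 1 as lower.

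Polygalacturonases of glycoside hydrolase family 28 cut the pectin backbone. This list of 9 was made after the values were seen; 8 were higher in both lines and 4 passed, with a median of 0.79, with 1.24 in wild type and 0.71 in overexpression. POPTR_0007s00490 was at 14.7 FPKM in wild type and 17.5 FPKM in overexpression after H2O2, against 2.93 and 1.36 FPKM after ASA (2.49 ± 0.27 (SE; limma adjusted p = 0.0381)), and POPTR_0010s05180 at 32.2 and 68.6 FPKM after H2O2 against 9.68 and 13.1 FPKM after ASA (1.97 ± 0.20 (SE; limma adjusted p = 0.0351)). Both H2O2 libraries lay above both ASA libraries in each. Of the wider list of 35 pectin enzymes, 17 were higher and 12 lower in both lines. Past the threshold were 5 (14.3%), all higher, beside 3.28% of described genes: these 4 and a pectate lyase, POPTR_0003s17450 (0.97 ± 0.13). After median-ratio scaling or quantile normalisation 2 of the wider list passed, both higher, and 2 of the 9 polygalacturonases. On the wider list voom called 10 higher and 5 lower.

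XTH genes lay lower with 1 exception. Of 12, also a list made after the values were seen, 11 (91.7%) were lower in both lines, beside 43.3% of described genes. Past the threshold were 3 (25%), all lower, beside 9.84%. In 8 both H2O2 libraries were below both ASA libraries. That non-overlap held for 13.6% of all genes tested and 25.8% of described genes. Besides POPTR_0005s00900, POPTR_0014s14310 was at 18.8 FPKM in wild type and 31.1 FPKM in overexpression after H2O2, against 125 and 132 FPKM after ASA (-2.36 ± 0.19 (SE; limma adjusted p = 0.0287)). In 9 of the 11 the difference was larger in wild type, as in POPTR_0006s07060, at 1.04 and 4.11 FPKM after H2O2 against 22.1 and 9.73 FPKM after ASA (limma adjusted p = 0.101). Of 10 cellulose synthases 8 were lower in both lines and 1 passed, POPTR_0007s07120 at 34.6 and 57.01 FPKM after H2O2 against 86.8 and 115 FPKM after ASA (-1.15 ± 0.14 (SE; limma adjusted p = 0.0437)).

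**Figure D4:**
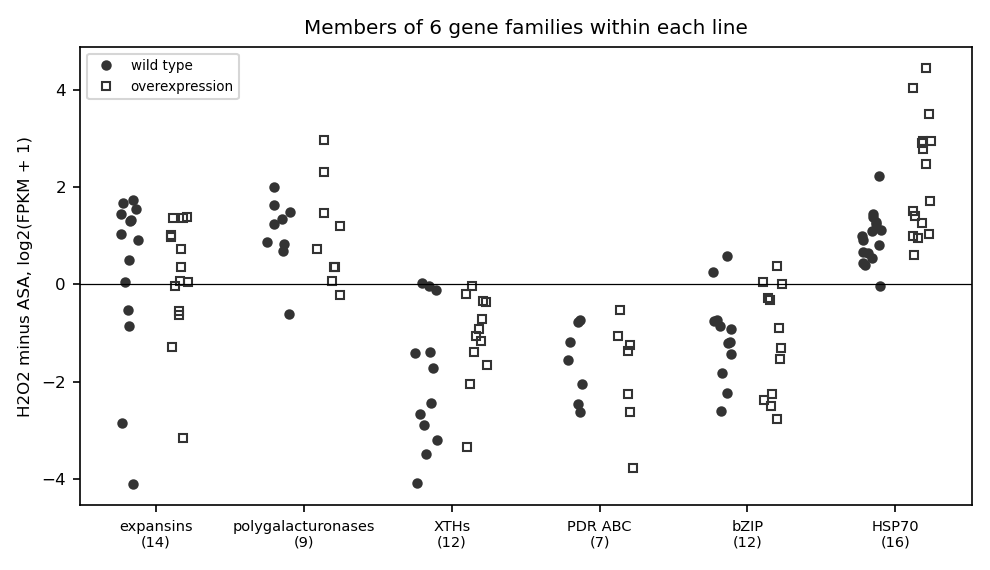
Difference between H2O2 and ASA in log2(FPKM + 1) for each member of 6 gene families, wild type as filled circles and overexpression as open squares; the number of genes is under each name and sideways scatter is arbitrary. XTH and PDR-type ABC transporter genes lie at or below 0 with 1 wild-type point just above it, HSP70 genes lie above 0 but for 1 wild-type point, and expansins spread to both sides.

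Haem peroxidases and catalase use up H2O2, and superoxide dismutase forms it from superoxide. Of 18 haem peroxidases 0 passed in limma, 5 were higher and 8 lower in both lines, and voom called 1 higher and 2 lower. The most abundant of those named, POPTR_0012s00700, was at 765 FPKM in wild type and 514 FPKM in overexpression after H2O2, against 1595 and 907 FPKM after ASA (limma adjusted p = 0.0837). Catalase POPTR_0005s27300 was at 66.1 and 19.4 FPKM after H2O2 against 79.4 and 34.5 FPKM after ASA and a manganese or iron superoxide dismutase, POPTR_0015s12190, at 100.02 and 65.02 FPKM after H2O2 against 34.3 and 44.5 FPKM after ASA; neither passed (limma adjusted p = 0.143 and 0.0986).

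Thiol-based genes that passed were lower. Glutathione peroxidase POPTR_0001s09270, which reduces peroxides with glutathione or thioredoxin, was at 168 FPKM in wild type and 107 FPKM in overexpression after H2O2, against 637 and 329.6 FPKM after ASA (-1.77 ± 0.16 (SE; limma adjusted p = 0.0319)). Glutaredoxins POPTR_0011s05780, at 11.3 and 10.3 FPKM after H2O2 against 72.4 and 42.6 FPKM after ASA (-2.26 ± 0.19 (SE; limma adjusted p = 0.0298)), and POPTR_0004s04940, at 71.6 and 29.6 FPKM after H2O2 against 194 and 153 FPKM after ASA (-1.88 ± 0.25 (SE; limma adjusted p = 0.0452)), were lower too. With an adenylylsulphate reductase, POPTR_0004s01220 (-1.02 ± 0.14), they were among the 5 genes past the threshold, all lower, in a list of 14 of thioredoxin type without glutathione transferase wording, made after the values were seen. In that list 7 genes were higher in both lines and 5 lower, and its median was 0.22, with 0.27 in wild type and -0.0045 in overexpression. Quantile normalisation gave 2 calls in it, both lower. The fixed list of thioredoxins, glutaredoxins and peroxiredoxins shares 20 of its 34 genes with the transferases. On it 8 (23.5%) passed, all lower, beside 9.84% of described genes, and 3 after quantile normalisation.

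Of 22 glutathione transferases, which couple glutathione to foreign or oxidised compounds, 14 (63.6%) were lower in both lines and 3 (13.6%) passed, all lower, beside 43.3% and 9.84% of described genes, and after quantile normalisation 1 passed. POPTR_0006s02510 was at 81.02 FPKM in wild type and 67.8 FPKM in overexpression after H2O2, against 227 and 216 FPKM after ASA (-1.57 ± 0.14 (SE; limma adjusted p = 0.0311)). POPTR_0019s15090 had a larger but uneven difference, -1.28 in wild type and -2.94 in overexpression, and did not pass (limma adjusted p = 0.0699). Alternative oxidases take electrons from the mitochondrial chain past its later complexes. POPTR_0012s01630 was at 333 FPKM in wild type and 12.8 FPKM in overexpression after H2O2, against 584 and 50.01 FPKM after ASA. The lines stood further apart than the treatments, and 0 of 3 passed by limma or voom.

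Of 30 aldo-keto reductases and alcohol or aldehyde dehydrogenases, 4 (13.3%) passed, all lower, near the 9.84% of described genes. Among them were POPTR_0017s03890, an alcohol dehydrogenase family gene at 9.895 and 4.19 FPKM after H2O2 against 35.04 and 23.05 FPKM after ASA (-1.97 ± 0.17 (SE; limma adjusted p = 0.0301)), and aldo/keto reductase POPTR_0010s10810 at 14.6 and 14.1 FPKM after H2O2 against 36.8 and 36.05 FPKM after ASA (-1.29 ± 0.12 (SE; limma adjusted p = 0.0334)). Of 32 cytochrome P450 genes 2 passed, both higher: POPTR_0010s19710 at 8.28 and 13.3 FPKM after H2O2 against 3.21 and 4.63 FPKM after ASA (1.24 ± 0.16 (SE; limma adjusted p = 0.0446)) and POPTR_0001s35810 at 36.1 and 10.8 FPKM after H2O2 against 16.7 and 4.19 FPKM after ASA (1.12 ± 0.13 (SE; limma adjusted p = 0.0416)). These P450 genes are 6.25% of their list, beside 3.28% of described genes, and neither passed after median-ratio scaling. Berberine-bridge-type oxidase POPTR_0011s16200 was the 1 of 9 that passed, at 43.5 and 40.2 FPKM after H2O2 against 15.8 and 18.4 FPKM after ASA (1.25 ± 0.14 (SE; limma adjusted p = 0.0401)). Of 8 multicopper oxidases and cupredoxins 0 passed in limma and voom called 1 higher.

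UDP-glycosyltransferases attach sugars to hormones, phenolics and foreign compounds. Of 34 genes, 10 (29.4%) passed as lower and 1 (2.94%) as higher, beside 9.84% and 3.28% of described genes. In both lines 20 (58.8%) were lower, beside 43.3% of described genes. POPTR_0006s05450 was at 1.26 FPKM in wild type and 7.26 FPKM in overexpression after H2O2, against 31.95 and 55.3 FPKM after ASA (-3.32 ± 0.29 (SE; limma adjusted p = 0.0301)). POPTR_0001s31140 stood at 2.06 and 0.382 FPKM after H2O2 against 16.1 and 5.09 FPKM after ASA (-2.31 ± 0.19 (SE; limma adjusted p = 0.0287)), where the lowest value rests on 9 reads. POPTR_0001s05400 was the exception, at 30.8 and 19.1 FPKM after H2O2 against 9.31 and 6.38 FPKM after ASA (1.54 ± 0.14 (SE; limma adjusted p = 0.0311)).

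ABC transporters of the PDR type export hormones and defence compounds across the plasma membrane. In this list of 7, made after the values were seen, all 7 were lower in both lines and 3 (42.9%) passed, beside 43.3% and 9.84% of described genes. POPTR_0001s14660 was at 15.4 FPKM in wild type and 18.2 FPKM in overexpression after H2O2, against 100.3 and 118 FPKM after ASA (-2.63 ± 0.12 (SE; limma adjusted p = 0.0254)), with an equal difference in both lines. Its neighbour by identifier, POPTR_0001s14650, was at 9.499 and 11.7 FPKM after H2O2 against 56.4 and 60.1 FPKM after ASA (-2.36 ± 0.13 (SE; limma adjusted p = 0.0254)), and reads shared by close copies cannot be told apart. POPTR_0003s18140 had the largest difference in overexpression (-2.06 in wild type and -3.79 in overexpression; limma adjusted p = 0.0503). Of all 29 ABC transporters 5 (17.2%) passed, all lower. Of 8 MATE transporters, which export small organic molecules, POPTR_0002s10250 at 21.8 and 11.4 FPKM after H2O2 against 68.96 and 52.6 FPKM after ASA (-1.86 ± 0.17 (SE; limma adjusted p = 0.0311)) and POPTR_0007s14390 passed as lower, and POPTR_0002s05600 as higher (0.97 ± 0.13 (SE; limma adjusted p = 0.0447)). The lower calls were 25% and the higher 12.5% of the MATE list, beside 9.84% and 3.28% of described genes. Median-ratio scaling and quantile normalisation called 0 MATE genes higher.

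Raffinose synthases make the raffinose family of storage and stress sugars. In this list of 6, made after the values were seen, 5 (83.3%) were lower in both lines, beside 43.3% of described genes. Past the threshold were 4 (66.7%), all lower, beside 9.84%. POPTR_0006s06460 was at 20.7 FPKM in wild type and 10.9 FPKM in overexpression after H2O2, against 54.6 and 48.2 FPKM after ASA (-1.701 ± 0.20 (SE; limma adjusted p = 0.0407)). Of 12 genes with a trehalose-phosphatase domain, likewise listed after the fact, 3 passed, all lower, such as POPTR_0018s10680 at 10.6 and 18.7 FPKM after H2O2 against 46.6 and 65.7 FPKM after ASA (-1.89 ± 0.14 (SE; limma adjusted p = 0.0285)). Glycoside hydrolase family 14 gene POPTR_0008s20870, of the beta-amylase family that breaks down starch, was at 41.7 and 53.5 FPKM after H2O2 against 195 and 253 FPKM after ASA (-2.21 ± 0.13 (SE; limma adjusted p = 0.0266)). None of 9 sucrose synthases and pyruvate decarboxylases passed in limma, and voom called 1 lower. POPTR_0018s07380 of that list was at 218 FPKM in wild type and 530.1 FPKM in overexpression after H2O2, against 636 and 580.2 FPKM after ASA, apart in wild type and nearly level in overexpression.

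Among major facilitators 5 (22.7%) of 22 passed as lower and 1 (4.55%), sugar transporter POPTR_0009s11650 above, as higher, beside 9.84% and 3.28% of described genes. Oligopeptide transporter POPTR_0014s17750 was at 2.53 FPKM in wild type and 2.53 FPKM in overexpression after H2O2, against 17.9 and 28.9 FPKM after ASA (-2.75 ± 0.21 (SE; limma adjusted p = 0.0285)), and POPTR_0008s01110 at 21.2 and 45.04 FPKM after H2O2 against 78.99 and 224 FPKM after ASA (-2.07 ± 0.16 (SE; limma adjusted p = 0.0285)). Of 9 amino acid transporters 2 (22.2%) passed, both lower, beside 9.84% of described genes. After median-ratio scaling or quantile normalisation 0 of the 9 passed, and voom called 1 higher and 3 lower. POPTR_0004s18770 was at 1.26 FPKM in wild type and 1.22 FPKM in overexpression after H2O2, against 4.76 and 40.5 FPKM after ASA; the overexpression ASA library stood alone, and the gene did not pass (limma adjusted p = 0.0957).

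None of 7 chalcone synthases and isomerases, early enzymes of flavonoid synthesis, passed in limma, and voom called 1. All 7 lay higher in both lines, beside 34.6% of described genes, with a median of 0.40, with 0.45 in wild type and 0.37 in overexpression. Chalcone synthase POPTR_0001s14310 was at 90.4 FPKM in wild type and 22.3 FPKM in overexpression after H2O2, against 54.1 and 10.9 FPKM after ASA (limma adjusted p = 0.0559). Here the lines stood further apart than the treatments, and the groups overlapped. Of 2 phenylalanine ammonia-lyases, at the entry of the pathway, 0 passed in limma or voom. POPTR_0006s12870 was at 321 and 64.8 FPKM after H2O2 against 274 and 62.7 FPKM after ASA, and POPTR_0016s09230 at 135 and 38.1 FPKM after H2O2 against 183 and 59.6 FPKM after ASA. Of 6 glycerophosphodiester phosphodiesterases 1 passed, POPTR_0001s13390 at 32.95 and 15.5 FPKM after H2O2 against 75.0 and 33.8 FPKM after ASA (-1.12 ± 0.12 (SE; limma adjusted p = 0.0387)), and of 9 SPX-domain genes, sensors of phosphate status, and 14 acid phosphatases 0 passed in limma, with 1 acid phosphatase called lower by voom.

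Genes described as wound-induced proteins of unknown function lay lower with 1 exception. Of 18, a list made after the values were seen, 17 (94.4%) were lower in both lines and 5 (27.8%) passed. In 15 both H2O2 libraries were below both ASA libraries. Of described genes, 43.3% were lower in both lines and 9.84% passed as lower. That non-overlap held for 25.8% of described genes and 13.6% of all genes tested. Quantile normalisation gave 1 call in this list, median-ratio scaling gave 8 and voom 13. POPTR_0019s13880 was at 16.1 FPKM in wild type and 16.3 FPKM in overexpression after H2O2, against 81.3 and 78.5 FPKM after ASA (-2.23 ± 0.12 (SE; limma adjusted p = 0.0254)), and POPTR_0013s14410 at 5.33 and 38.5 FPKM after H2O2 against 21.04 and 100.5 FPKM after ASA (-1.58 ± 0.16 (SE; limma adjusted p = 0.0358)). Many of these identifiers are neighbours on one scaffold, so the members may share reads and are not independent. A pair of genes for cystatins, inhibitors of cysteine proteases, passed as lower. POPTR_0002s23690 was at 7.45 FPKM in wild type and 3.99 FPKM in overexpression after H2O2, against 69.9 and 24.5 FPKM after ASA (-2.71 ± 0.21 (SE; limma adjusted p = 0.0285)), and POPTR_0006s01560, at 492 and 691 FPKM after H2O2 against 1543 and 1864 FPKM after ASA, was among the most abundant genes named (-1.54 ± 0.22 (SE; limma adjusted p = 0.0488)). The list of pathogenesis-related proteins that holds these genes has 81 members, 7 higher and 8 lower past the threshold, and its higher members are 5 expansins and a pair of subtilisin-type genes caught by its wording.

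Of 30 histone genes 16 were lower and 4 higher in both lines, and 0 passed in limma, while voom called 3 lower. Histone H3 gene POPTR_0005s25700 was at 488 FPKM in wild type and 380.01 FPKM in overexpression after H2O2, against 841 and 684 FPKM after ASA (limma adjusted p = 0.0831). Among 9 kinesins and cyclins without F-box wording, kinesin POPTR_0030s00220 passed as higher, at 18.2 and 17.8 FPKM after H2O2 against 8.48 and 5.53 FPKM after ASA (1.27 ± 0.18 (SE; limma adjusted p = 0.0497)). The fixed list of cyclins and kinesins mostly caught F-box genes described as cyclin-like, and its counts of 3 higher and 10 lower of 34 are those of F-box genes but for that kinesin. In bulk cultures, fewer cells of a kind and less RNA per cell cannot be told apart.

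**Figure D5:**
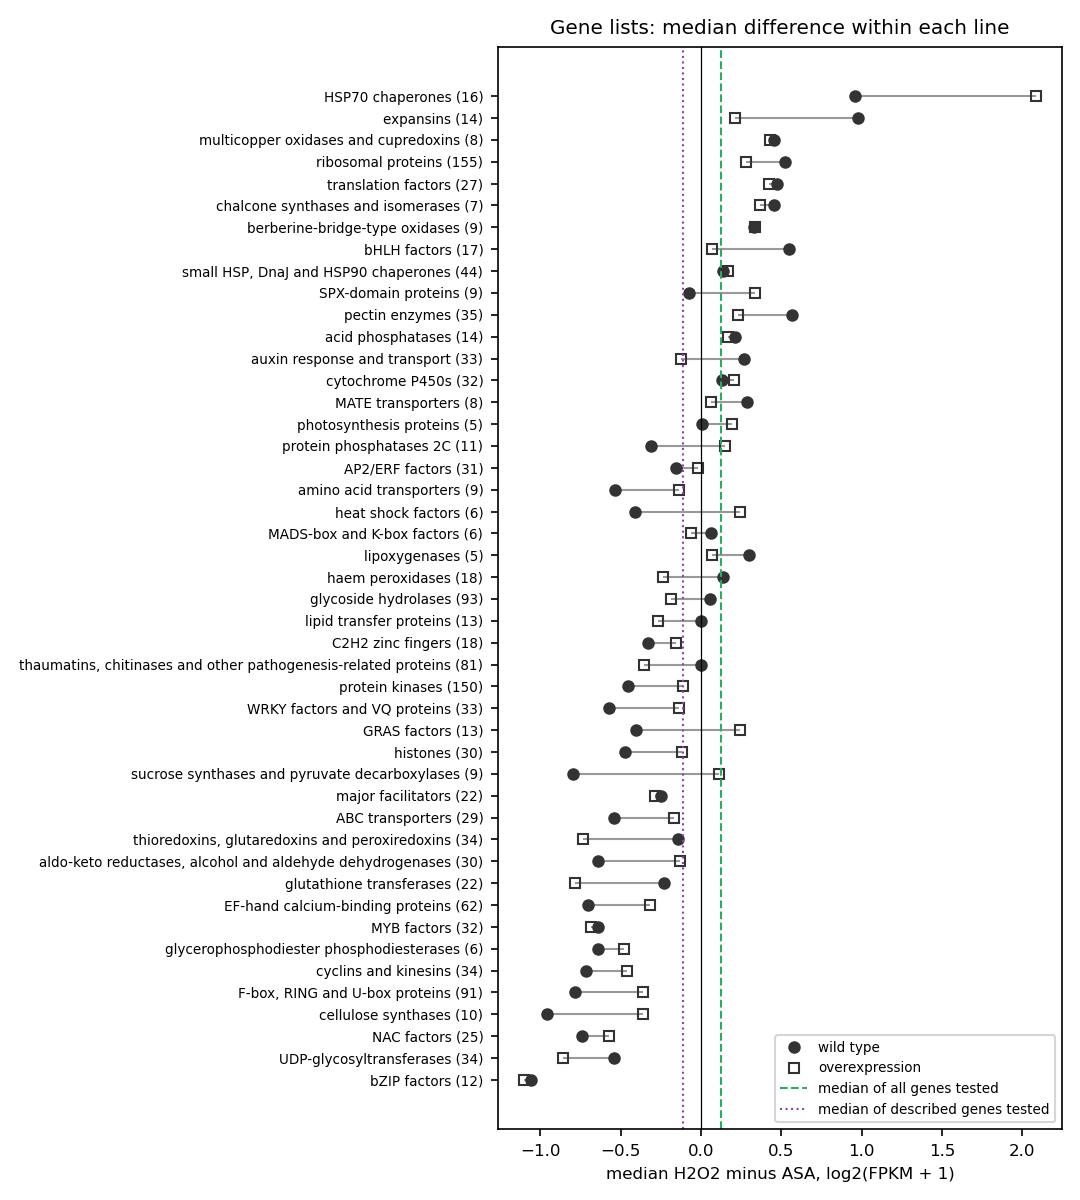
Median difference between H2O2 and ASA in log2(FPKM + 1) for each gene list fixed for this comparison with at least 5 measured members, wild type as filled circles and overexpression as open squares; the number of genes follows each name, and dashed and dotted lines mark the medians over all and over described genes tested; lists made after the values were seen are not plotted. Of the plotted lists, HSP70 genes lie furthest right, at 0.96 and 2.09, and bZIP factors furthest left, at -1.06 and -1.10 (in wild type and overexpression). The plotted lists were chosen with earlier results of these data known, and the one named photosynthesis proteins also holds genes of other pathways caught by its wording.

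Opposite directions in the lines were seen for 3689 genes that were higher in wild type and lower in overexpression and for 2414 with the reverse. Of these, 2 and 5 genes were at least 2-fold apart in each line. The clearest described gene of the first kind by the ranking used was bHLH gene POPTR_0006s03590, at 8.37 FPKM in wild type and 11.6 FPKM in overexpression after H2O2, against 4.87 and 43.3 FPKM after ASA. The overexpression ASA library was alone at a high level. POPTR_0014s18770, described as a subunit of the mitochondrial outer membrane translocase, was at 2.77 FPKM in wild type and 2.29 FPKM in overexpression after H2O2, against 1.49 and 101 FPKM after ASA, again with 1 library far from the others, on 1009 reads. Of the second kind, trehalose-phosphatase domain gene POPTR_0015s14810 was at 7.54 FPKM in wild type and 9.63 FPKM in overexpression after H2O2, against 25.7 and 2.88 FPKM after ASA, and EF-hand gene POPTR_0004s21230 at 21.4 and 31.6 FPKM after H2O2 against 42.3 and 10.1 FPKM after ASA. With 1 library per line and treatment these opposite differences cannot be tested.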

How the data were processed

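RNA was sequenced from 9 libraries, of which the 4 libraries of wild type and overexpression after H2O2 or ASA were analysed. The authors deposited FPKM values for 41624 genes. The submitters' processing notes list HTSeq 0.6.1, TopHat2 2.0.12, TopHat and Bowtie2 2.2.3; which tool did what, and on which genome build, is not given in the sources used here. From the authors' deposited tables of line differences only gene descriptions were taken, and the fold changes and p-values in them were not used. Those descriptions cover 2719 of the 2976 genes listed there, so lists hold only genes that the authors had found to differ between lines. Some of those tables compare overexpression with wild type in the 4 libraries used here. Unequal treatment differences in the lines may therefore be partly selected for in any list. Of the identifiers, 0 were found in the reference gene table, and no sequence or position was used.

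Whole reads were recovered from the FPKM steps for 33158 of 33158 expressed genes (100%; relative tolerance 5e-09), although 1546 of them have reads in 1 library only and fix no ratio. These reads gave depths, exact 95% intervals for ratios of counts and a floor of 3 reads, which cover counting error only. Reads from near-identical gene copies cannot be told apart.

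R 4.3.3 with limma 3.58.1 was used to test log2(FPKM + 1) for 23184 genes whose mean reached 1 FPKM, with line and treatment as factors, empirical Bayes moderation with a trend, and Benjamini-Hochberg adjustment at 0.05. The fit has 1 residual degree of freedom, to which moderation adds 3.59. Differences are H2O2 minus ASA on that scale, which understates changes of low genes. The script was tested on simulated data. The count-based alternative, voom, ran on the recovered reads.

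The comparison, the 50 gene lists and the rule for named genes were chosen with earlier results of these data known, and 17 further lists were made after the values were seen. By that rule the text names 12 described genes in each direction with the largest smaller within-line difference, 2 in each direction without description, up to 4 per list by size and up to 4 by p, 4 described genes of each opposite orientation and the 5 smallest p-values; a few other members are named as examples chosen after their values were seen. Alternatives were the pseudocount, the filter, the scaling, the model and leaving out each library.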

Additional observations from a re-analysis of the deposited data

Results flagged for a closer look

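Values with opposite signs in the lines were picked out for 8 described genes; each line has 1 library per treatment, so the difference was not tested. The difference between H2O2 and ASA in wild type minus that in overexpression was 2.49 for bHLH gene POPTR_0006s03590, 1.35 for CRAL-TRIO gene POPTR_0005s26810, 5.54 for translocase gene POPTR_0014s18770 and 1.22 for RWP-RK gene POPTR_0009s09060, all in log2(FPKM + 1). It was -3.10 for trehalose-phosphatase gene POPTR_0015s14810, -2.65 for Harbinger-nuclease gene POPTR_0018s07790, -2.24 for malectin kinase gene POPTR_0011s10750 and -2.51 for EF-hand gene POPTR_0004s21230. RWP-RK gene POPTR_0009s09060 was at 10.2 and 4.57 FPKM after H2O2 against 6.47 and 7.68 FPKM after ASA (wild type first), and Harbinger-nuclease gene POPTR_0018s07790 at 28.7 and 21.2 FPKM after H2O2 against 72.7 and 7.76 FPKM after ASA.

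Medians of some lists also had opposite signs in the lines, untested. Wild type minus overexpression, the difference of medians was 0.38 for haem peroxidases, -0.65 for heat shock factors, 0.12 for MADS-box and K-box factors, -0.65 for GRAS factors, 0.0436 for TIFY (JAZ) proteins, -0.46 for protein phosphatases 2C, 0.39 for auxin response and transport, 0.24 for glycoside hydrolases, -0.41 for SPX-domain proteins and -0.91 for sucrose synthases and pyruvate decarboxylases.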

How the results depend on the processing

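Main counts were 180 higher and 421 lower genes by limma, and 201 and 499 at least 2-fold apart in both lines. Requiring a mean of 5 FPKM gave 78 and 277 calls, median-ratio scaling 47 higher, quantile normalisation 42 and 257, a pseudocount of 0.1 FPKM 88 higher and one of 5 FPKM 36 and 173, and voom on recovered reads 545 and 837, of which 581 were among the 601 main calls. A pseudocount of 0.1 FPKM gave 391 genes 2-fold higher, and one of 5 FPKM gave 60 and 266. With no filter (32033 genes), no line block or no trend, limma called 0 and 0, with smallest adjusted p of 0.189, 0.572 and 0.0577. Leaving out any 1 library, which allows no line block, gave 0 calls in either direction for each of the 4 libraries (range 0 to 0), with 796 to 1390 genes at an unadjusted p below 0.05; the lone library of its treatment is assumed to vary like the others, and as the full set without the block also gave 0, these counts say nothing about single libraries. The cause of the other shifts was not tested.

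No named gene changed direction past the threshold, but under the settings with 0 calls none could. Most named genes had also been picked for differences of the same sign in both lines, so this says little about robustness. Median-ratio scaling turned the median of 5 lists negative (AP2/ERF factors, protein phosphatases 2C, amino acid transporters, photosynthesis proteins and homeobox proteins), and quantile normalisation that of amino acid transporters. The word pattern of the photosynthesis list also caught a vitamin B6 synthesis gene, POPTR_0006s10130, and an orotate phosphoribosyltransferase gene, POPTR_0003s19810. Taking 1 line alone, 9 or 10 of 66 list medians changed sign. Lists with at least 3 genes past the threshold in 1 direction also shifted: quantile normalisation lowered the count of lower genes by more than 1.5 times in 13 of 33 lists and that of higher genes in 9 of 10, and voom raised them by as much in 12 and 4. The analysis is paired by line, and the fit without that pairing is the one with no line block above. Depth limits genes near 3 reads.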

Other observations

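Other gene groups were listed after their values were seen and are given as a description. Of described genes, 43.3% were lower in both lines, 9.84% passed as lower and 3.28% as higher. Of 17 heavy metal transport and detoxification proteins, small metal-binding proteins, 10 were lower after H2O2 in both lines and 4 passed as lower at a limma adjusted p of at most 0.05. POPTR_0004s18140 was the most abundant of these 4, at 103 FPKM in wild type and 59.4 FPKM in overexpression after H2O2, against 387 and 208 FPKM after ASA, and POPTR_0010s12480 had the largest difference, at 17.2 and 12.8 FPKM after H2O2 against 97.6 and 65.2 FPKM after ASA (-2.35 ± 0.13 (SE; limma adjusted p = 0.0254)). Within-line differences of the latter were -2.44 in wild type and -2.26 in overexpression.

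AMP-dependent synthetases, which activate acids such as fatty or cinnamic acids, were lower in both lines in 10 of 11 genes, and 4 passed. POPTR_0006s03460 was at 5.09 FPKM in wild type and 6.33 FPKM in overexpression after H2O2, against 37.7 and 58.3 FPKM after ASA (-2.84 ± 0.15 (SE; limma adjusted p = 0.0254)), and POPTR_0015s13060 at 189 and 91.7 FPKM after H2O2 against 549 and 524 FPKM after ASA (-2.02 ± 0.27 (SE; limma adjusted p = 0.0468)). POPTR_0006s03470, next to the first by identifier, was at 2.74 and 2.54 FPKM after H2O2 against 14.5 and 21.6 FPKM after ASA, and the reads of such neighbours may be shared. Among 18 homeobox genes 3 passed, all lower, of which POPTR_0007s14590 and POPTR_0009s02850 carry the leucine zipper of HD-Zip factors. POPTR_0007s14590 was at 94.2 FPKM in wild type and 71.2 FPKM in overexpression after H2O2, against 236 and 241 FPKM after ASA (-1.53 ± 0.17 (SE; limma adjusted p = 0.0381)).

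Aspartic peptidases gave 4 lower and 1 higher of 20. POPTR_0002s05580 was at 212 FPKM in wild type and 101 FPKM in overexpression after H2O2, against 768 and 289 FPKM after ASA (-1.68 ± 0.17 (SE; limma adjusted p = 0.0355)), and POPTR_0010s13830, the higher one, at 13.9 and 10.9 FPKM after H2O2 against 5.91 and 4.797 FPKM after ASA (1.07 ± 0.14 (SE; limma adjusted p = 0.0468)).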
